A study of Mus musculus with 21 samples.

Results

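The choroid plexus genes described here are 10 of the 21872 gene symbols in the series: Ttr, Kl, Folr1, Aqp1, Clic6, Otx2, Slc4a5, Enpp2, Prlr and F5. They were taken by symbol from 2 tables of read counts, and every symbol was found in both. RNA had been sequenced from mouse brain whose labelled treatment was water (control) or TETA (trientine, a drug that chelates copper), and the labels call the TETA condition copper-deficient. There were 6 control and 6 TETA libraries at embryonic day 18.5 (E18.5), and 5 control and 4 TETA libraries at 7 weeks. The protocol names only the prefrontal cortex of males at 7 weeks. Region and sex at E18.5, strain, and the dose and duration of TETA are not given in the sources used here. Nothing in the labels says that libraries of a group came from separate litters or animals, so p-values measure only the spread between these libraries, which may be partly technical.

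The choroid plexus is the secretory epithelium inside the brain ventricles that makes cerebrospinal fluid. It lies next to brain tissue but is no part of the cortex, and its cells hold very large amounts of Ttr mRNA, so that a small piece of it in a dissected sample can be seen in RNA. The 10 genes cover its main functions. Ttr (transthyretin, the carrier of thyroid hormone and of the retinol-binding protein), Enpp2 (autotaxin, which makes lysophosphatidic acid), F5 (coagulation factor V) and Kl (Klotho, the co-receptor for Fgf23 that is also shed) act outside the cell. Folr1 is a folate receptor and Prlr the prolactin receptor. Aqp1 is a water channel, Slc4a5 a sodium bicarbonate cotransporter and Clic6 a chloride channel protein. Otx2 is the homeodomain transcription factor needed to form and maintain the epithelium. Some of the genes have other sources in brain: Enpp2 is a known product of oligodendrocytes, and Aqp1 is also made in blood cells.

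In the E18.5 table, all 1940 rows at 0 in the control library numbered 1-1 and above 0 elsewhere held only multiples of 11, against 0 of the 15892 rows above 0 in that library and 0 of 17658 rows at 7 weeks. The counts of these rows were divided by 11. Folr1 and Slc4a5 are the 2 choroid plexus genes this touches, and their control 1-1 values of 0 should be read with that fault in mind. The depth of the embryonic libraries was 14678265 to 24308555 counts, and that of the 7-week libraries 17838051 to 24035857 counts. Levels are given as CPM (read counts brought to one library size) after TMM normalization, in which 3 counts, the most that a count of 0 allows, correspond to 0.123 to 0.204 CPM at E18.5 and 0.126 to 0.167 CPM at 7 weeks. These limits cover counting error only.

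One library stood apart. Control 4 at 7 weeks carried 1016 Ttr counts, while the other 8 libraries of that age carried 4 to 28. On the CPM scale its Ttr level was 51.9, which is 43.2 times the next highest library. Of the 10 genes, 9 had their highest 7-week level in control 4, whereas 9.12% of all genes tested did. The exception was Aqp1, at 0.46 CPM in control 4 and highest in control 2 at 0.964 CPM. Results at 7 weeks that change without this library are given with and without it.

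**Figure D1:**
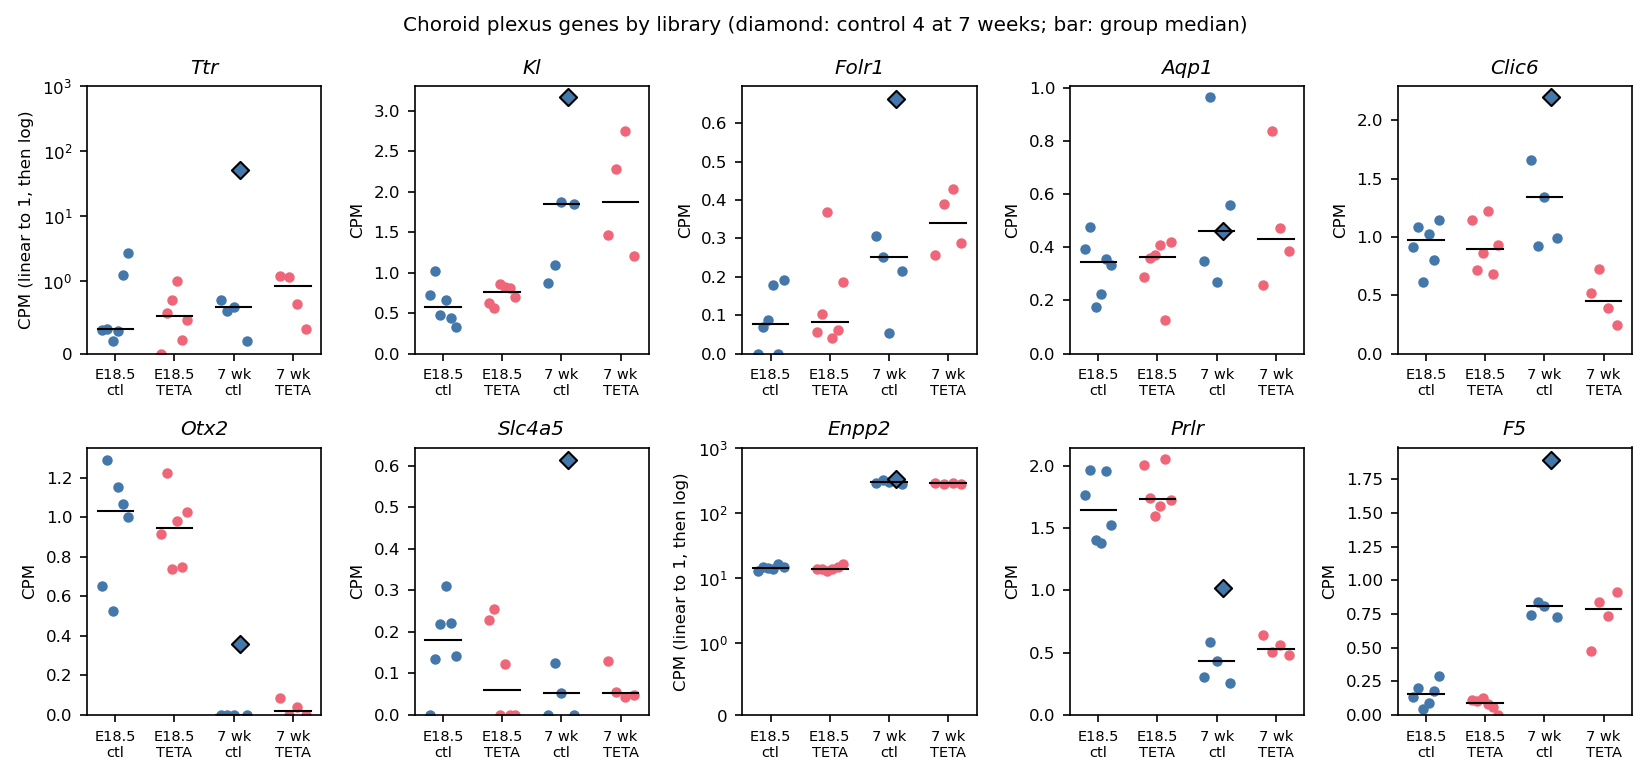
Level (CPM) of each of the 10 genes in every library, by age and treatment. The vertical axes of Ttr and Enpp2 are linear up to 1 CPM and logarithmic above. Points are single libraries, bars are group medians, and the diamond is control 4 at 7 weeks, which is the highest 7-week library for every gene but Aqp1.

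At E18.5 the genes were low in all 12 libraries, Enpp2 apart. Ttr had 4, 5, 5, 7, 28 and 56 counts in the control libraries and 0, 3, 10, 11, 12 and 25 in the TETA libraries. In CPM, Ttr ran from 0.175 through a median of 0.333 to 2.67 in control and from 0 through 0.514 to 1.02 in TETA. The 2 high control values came from libraries 3-1 and 3-2, and the groups overlapped. Ttr, which choroid plexus cells hold in very large amounts, was therefore no higher than a few CPM in any embryonic library.

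The other secreted proteins at this age were Enpp2, Kl and F5. Enpp2 was the most abundant, at 12.4 to 16.4 CPM in control and 12.8 to 16 in TETA, with medians of 14.2 and 13.7. Kl ran from 0.334 to 1.02 CPM in control (median 0.574) and from 0.562 to 0.861 in TETA (median 0.755). F5 was at 6 counts or fewer in every library. The 2 receptors differed in level: Prlr lay at 1.38 to 1.97 CPM in control and 1.60 to 2.06 in TETA, with medians of 1.65 and 1.73, and Folr1 had at most 6 counts. Prlr varied little between libraries, and its groups overlapped across most of their range.

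Among the proteins that move water and ions, Clic6 was the best measured at E18.5. It ran from 0.613 through a median of 0.969 to 1.15 CPM in control and from 0.685 through 0.897 to 1.23 in TETA. Aqp1 had 2 to 10 counts per library and Slc4a5 0 to 7. Slc4a5 was at 0 in 4 of the 12 libraries, 3 of them TETA. Otx2 was measured in every library, at 0.526 to 1.29 CPM in control (median 1.03) and 0.738 to 1.23 in TETA (median 0.948). Clic6 and Otx2 thus covered nearly the same range in both groups.

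No choroid plexus gene passed the test between TETA and control at E18.5. Only 5 of the 10 (Kl, Clic6, Otx2, Enpp2 and Prlr) had enough counts to be tested, and 0 of the 5 passed edgeR's quasi-likelihood test after Benjamini-Hochberg adjustment over 13794 genes, of which 0% passed. At an unadjusted p under 0.05 the count was also 0 of 5, against 4.78% of all genes, and DESeq2 called 0. None of the 5 had groups that did not overlap, which 0.312% of genes did. The log2 fold changes lay between -0.02 (SE 0.068) for Enpp2 and 0.32 (SE 0.253) for Kl, and edgeR's adjusted p-values were 0.996 or more. In a fit without the filter the other 5 had log2 fold changes of -0.90 (SE 0.568) for F5, -0.78 (SE 0.631) for Slc4a5, -0.74 (SE 0.531) for Ttr, 0.10 (SE 0.344) for Aqp1 and 0.48 (SE 0.652) for Folr1. None of these reached an unadjusted p under 0.05.

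Ttr lies at chr18:20665280-20674321 on the plus strand of GRCm38 (mm10). At 7 weeks it stood at 0.741, 0.587, 0.644, 51.9 and 0.172 CPM in controls 1 to 5 and at 1.2, 1.17, 0.688 and 0.337 CPM in TETA 1 to 4. Without control 4 the 2 groups overlap, and the 2 highest values belong to TETA. Control averaged 10.8 ± 23.0 CPM (SD, n = 5), and TETA averaged 0.849 ± 0.415 CPM (SD, n = 4). The fitted log2 fold change was -3.62 (SE 1.29, adjusted p = 0.0837 by edgeR's quasi-likelihood test). Without control 4 it was 0.67 (SE 0.399, adjusted p = 0.356 by the same test), with a control mean of 0.536 ± 0.251 CPM (SD, n = 4). The apparent drop of Ttr in TETA animals therefore rested on 1 control library, and its direction turned when that library was left out. With limma voom and library quality weights the value was -0.99 (adjusted p = 0.684).

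Otx2 and Slc4a5 were also far higher in control 4 than in the other libraries of that age. Otx2 had 7 counts there, 2 and 1 in TETA 1 and TETA 3, and 0 in the remaining 6 libraries, each of which allows up to 3 counts. Slc4a5 had 12 counts in control 4 and 0 to 3 elsewhere. Both transcripts were thus at or near 0 in the libraries other than control 4. F5 stood at 0.741, 0.838, 0.805, 1.89 and 0.73 CPM in controls 1 to 5 and between 0.472 and 0.914 CPM in TETA, so that control 4 was 2.07 times the next library. Prlr was at 1.02 CPM in control 4 and at 0.258 to 0.644 in the other 8 libraries, and Folr1 at 0.664 against 0.0537 to 0.43. In control 4, Kl was 1.15 times the next library and Enpp2 1.02 times.

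Of 43 further choroid plexus genes measured, 12 (27.9%) were highest in control 4, and 10 (23.3%) in control 5, a library with little Ttr in which 11.5% of all genes tested were highest. Kcne2, a potassium channel subunit that sits at the apical membrane of this epithelium, had 12 counts in control 4 and at most 2 in any other library. Tmem72 had 10 against at most 3, the tight junction protein Cldn2 8 against at most 3, and Mfrp 6 against at most 1. Lmx1a, Cldn3 and Cdh3 were at 0 in control 4, with at most 1, 3 and 6 counts in any other library. Calml4 had 3 counts in control 4 and up to 11 elsewhere, and Wfdc2 2 and up to 8. Across the 14070 genes with at least 10 counts in control 4, 1339 were highest in it, and the 5 with the greatest distance from the next library (difference of log2(CPM + 0.5)) were Ttr, Kcne2, Slc4a5, F5 and Tmem72, all of them choroid plexus genes. The minimum was set on control 4 itself. Kcne2, Slc4a5 and Tmem72 entered the ranking only because they were high there, so the ranking is a description. Markers of ependyma, the ciliated lining of the ventricles, did not follow: 0 of 10 were highest in control 4, and 7 of 10 were highest in control 3. Oligodendrocyte markers were highest in control 4 for 0 of 10 genes, striatum markers for 1 of 13 and meningeal fibroblast markers for 1 of 12. For blood markers it was 2 of 6 (33.3%). The share over all genes tested was 9.12%.

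**Figure D2:**
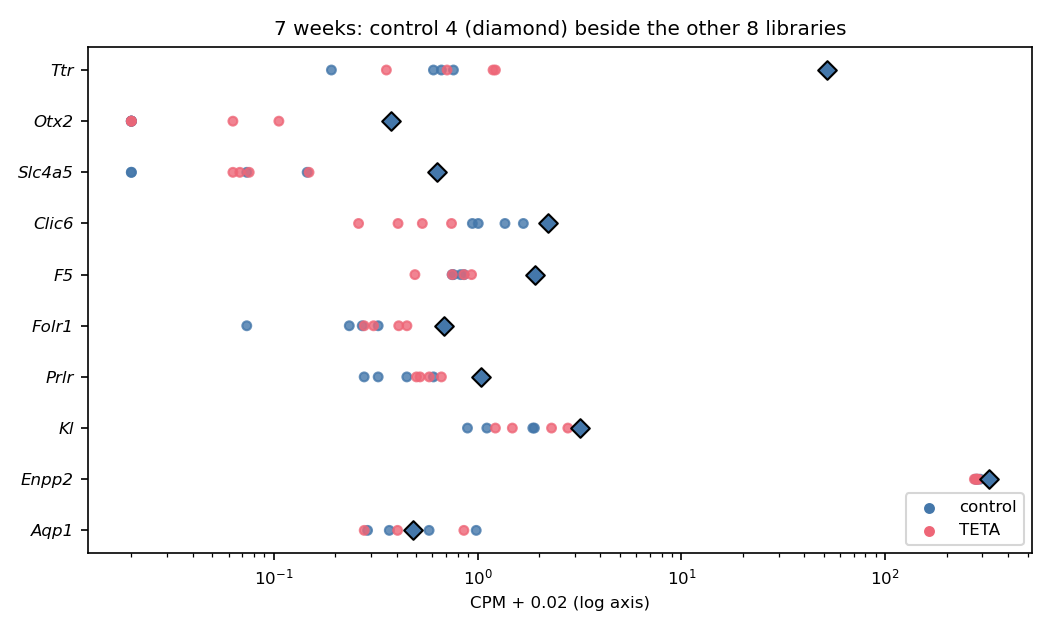
Level of the 10 genes in the 9 libraries at 7 weeks, on a logarithmic axis after adding 0.02 CPM so that a level of 0 can be drawn. Blue points are control and red points TETA libraries, and the diamond is control 4, where Ttr lies at 51.9 CPM and all other libraries lie at 1.2 CPM or below.

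Clic6 was the only one of the 10 genes to pass the test between TETA and control at 7 weeks, and it fell. It had 38, 22, 25, 43 and 23 counts in controls 1 to 5 and 12, 13, 9 and 5 counts in TETA 1 to 4. The levels were 1.66, 0.922, 1.34, 2.2 and 0.987 CPM in control and 0.515, 0.725, 0.387 and 0.241 CPM in TETA. Every TETA library lay below every control library. Control averaged 1.42 ± 0.524 CPM (SD, n = 5), whereas TETA averaged 0.467 ± 0.205 CPM (SD, n = 4). The log2 fold change was -1.60 (SE 0.323, adjusted p = 0.00282 by edgeR's quasi-likelihood test). Without control 4 it was -1.40 (SE 0.315, adjusted p = 0.00893 by the same test), and the groups still did not overlap. Clic6 had met the count filter through its control libraries, the group in which it was high, so these values are a description. In a fit of all libraries without the filter, its log2 fold change was -1.60 (adjusted p = 0.00119 by edgeR's quasi-likelihood test).

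Clic6 lies at chr16:92485736-92541243 on the plus strand of GRCm38. Of the other transport genes, Slc4a5 was too low to be tested and Aqp1 did not pass. Aqp1 stood at 0.349, 0.964, 0.268, 0.46 and 0.558 CPM in controls 1 to 5 and at 0.258, 0.836, 0.473 and 0.385 CPM in TETA 1 to 4, with a log2 fold change of -0.17 (SE 0.39). Beside Clic6, all 13 markers of striatum, the region below the cortex, were lower in TETA by edgeR's test (4.28% of all genes were), with a median log2 fold change of -1.34. Their summed level was 1192 to 1460 CPM in control and 554 to 696 CPM in TETA. Within the control group, the 3 libraries with the highest Clic6 (controls 4, 1 and 3) were also the 3 with the highest striatum sum, but control 4 was the lowest of these 3 in the sum, at 1358 CPM. Within the TETA group, TETA 2 and TETA 1 were highest in both, whereas TETA 3 was above TETA 4 in Clic6 and below it in the sum. The part of these markers in the Clic6 result was not tested. In bulk tissue, fewer cells that express Clic6 and less Clic6 RNA per cell cannot be told apart.

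**Figure D3:**
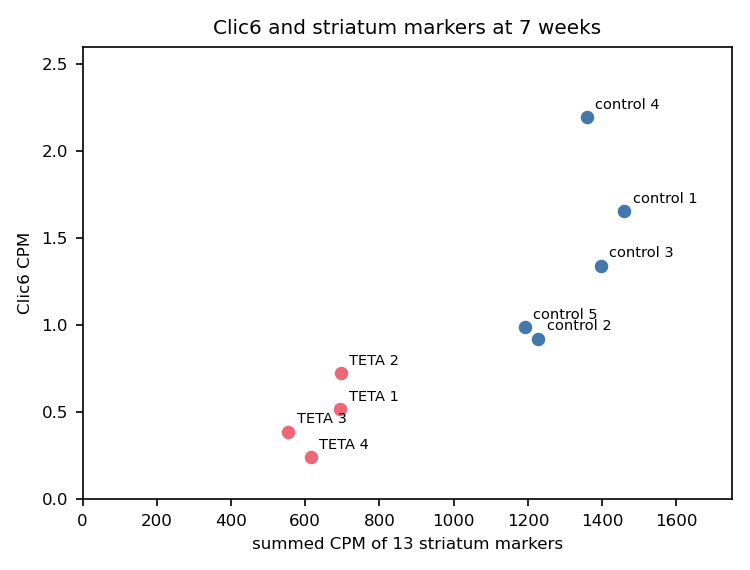
Clic6 level (CPM) against the summed level (CPM) of 13 striatum markers in the 9 libraries at 7 weeks. Controls (blue) lie at 0.922 CPM of Clic6 or more and at 1192 CPM or more of the sum, and TETA libraries (red) at 0.725 and 696 CPM or less.

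Enpp2 (chr15:54838901-54952892, minus strand of GRCm38) was far above the other genes at 7 weeks, Ttr in control 4 included. It stood at 282, 317, 292, 323 and 277 CPM in controls 1 to 5 and at 285, 274, 283 and 280 CPM in TETA 1 to 4. The TETA values all lay within or just below the control range, and controls 2 and 4 were the high ones. The log2 fold change was -0.09 (SE 0.041), with an unadjusted p of 0.0444 and an adjusted p of 0.195 by edgeR's quasi-likelihood test. Without control 4 it was -0.06 (SE 0.039), with an unadjusted p of 0.159 in edgeR's test. Summed oligodendrocyte markers ran from 6621 to 7833 CPM in control and from 6005 to 7008 CPM in TETA. Of these 10 markers 0 passed edgeR's adjusted threshold (9.96% of all genes did), and their median log2 fold change was -0.11. At an unadjusted p under 0.05, 3 of the 10 were lower, beside 24% of all genes that differed in either direction. Of the 2 high Enpp2 libraries, control 2 was the highest control in that sum, at 7833 CPM, and control 4 the next to lowest, at 6747 CPM. The part of oligodendrocyte RNA in Enpp2 was not tested.

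Kl, the Klotho gene, varied more between libraries of a group than between groups. It was at 0.872, 1.09, 1.88, 3.17 and 1.85 CPM in controls 1 to 5 and at 1.46, 2.29, 2.75 and 1.2 CPM in TETA 1 to 4. Its log2 fold change was 0.15 (SE 0.301), that of Prlr 0.11 (SE 0.358) and that of F5 -0.43 (SE 0.311). Without control 4 these became 0.45 (SE 0.28), 0.47 (SE 0.337) and -0.09 (SE 0.267). None of the 6 values had an edgeR adjusted p below 0.05.

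Counted together, 7 of the 10 genes were tested at 7 weeks (Folr1, Otx2 and Slc4a5 had too few counts) and 1 passed edgeR's adjusted threshold, against 9.96% of 14240 genes. Clic6 had passed the filter through its control libraries, since of the TETA libraries only TETA 1 and TETA 2 reached the level required. In the downward direction the background was 4.28%, and it was 5.67% upward. Unadjusted p-values under 0.05 were found for 3 of the 7 (Ttr, Clic6 and Enpp2), against 24% of all genes. Without control 4 only Clic6 was left, 1 of 7 against 22.2% of all genes. Groups without overlap were seen for 1 of them, Clic6, against 11.2% of all genes. A count of 1 in 7 beside that background is no result about the genes as a list. The median log2 fold change of the 7 was -0.17, against 0.00019 over all genes tested, and without control 4 it was -0.06, against -0.00054.

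**Figure D4:**
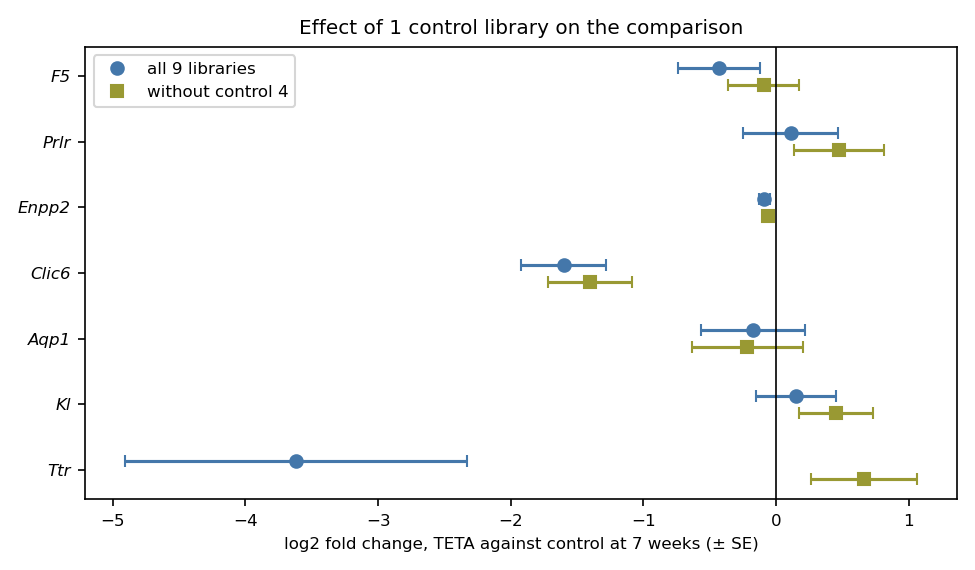
Log2 fold change between TETA and control at 7 weeks, with its standard error, for the 7 genes with enough counts, from all 9 libraries (circles) and without control 4 (squares). Ttr moves from -3.62 to 0.67, whereas Clic6 stays at -1.60 and -1.40.

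Another 43 genes known from choroid plexus were measured. At E18.5, 25 were tested and 0 passed edgeR's adjusted threshold, with 3 at an unadjusted p under 0.05 (4.78% of all genes): Cldn3 at a log2 fold change of 0.28 (SE 0.124), Car14 at 0.55 (SE 0.254) and Col9a3 at -0.13 (SE 0.053). DESeq2 called 0 of them. At 7 weeks 29 were tested, 10 fell and 0 rose (4.28% and 5.67% of all genes), with a median log2 fold change of -0.17. Among the 10 were Stra6 (a cell surface receptor for retinol uptake), Bmp7 (a secreted growth factor), the short-chain collagens Col8a1 and Col8a2, Lbp (lipopolysaccharide-binding protein), Slc13a4 (a sulfate transporter), Slc23a2 (a vitamin C transporter), Kcne1l (a potassium channel subunit) and Vat1l. Control means of the 10 ran from 2.26 CPM (Kcne1l) to 235 CPM (Slc23a2), while the control median of Ttr was 0.644 CPM. Kcne2, Tmem72, Cldn2 and Mfrp were too low to be tested. The part of choroid plexus RNA in the 10 decreases was not tested.

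Stra6 lay at 5.80 to 8.03 CPM in control and 2.96 to 5.57 CPM in TETA, at a log2 fold change of -0.67 (SE 0.148, adjusted p = 0.00555 by edgeR's quasi-likelihood test). Every TETA library was below every control library, and without control 4 the decrease was as large, at -0.72. Col8a1, Slc13a4, Slc23a2 and Vat1l no longer passed without control 4, which left 6 of the 10, although their log2 fold changes were little altered: Col8a1 was at -0.71 with it and -0.64 without, Slc13a4 at -0.40 and -0.39, Slc23a2 at -0.095 and -0.092, and Vat1l at -0.17 and -0.16. Leaving out TETA 1 also left 6.

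Several of these genes are known from meningeal fibroblasts as well, and meningeal markers moved in the same direction: 5 of 12 were called lower (4.28% of all genes were) and 0 higher, and their summed level was 97.3 to 114 CPM in control and 58.1 to 93.8 CPM in TETA. Control 4 was the lowest control in that sum. Of the blood markers 0 of 5 tested were called, beside 9.96% of all genes. Of the ependyma markers 1 of 8 tested was called, Tekt1, which rose as 5.67% of all genes did, while the median log2 fold change of that list was -0.20. The part of meningeal RNA in the 10 decreases was not tested.

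Genes that work with the 10 were measured too, among them Fgf23 and Fgfr1 for Kl, Prl and Jak2 for Prlr, thyroid hormone receptors and transporters for Ttr, lysophosphatidic acid receptors for Enpp2, and folate genes for Folr1. Of 19 such genes, 15 were tested at E18.5 with 0 called, and 17 at 7 weeks with 2 called, both higher in TETA, beside 9.96% called among all genes. Thrb, a thyroid hormone receptor, rose from 79.4 ± 3.62 CPM (SD, n = 5) to 87.5 ± 4.26 CPM (SD, n = 4), by 0.14 on the log2 scale (SE 0.042, adjusted p = 0.0379 by edgeR's quasi-likelihood test). Fgf23 and Prl, the ligands of the Klotho complex and of Prlr, were too low at 7 weeks to be tested.

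The TETA difference of Clic6 at 7 weeks was itself different from that at E18.5. In a model over both ages the change in the TETA effect was -1.64 on the log2 scale (SE 0.392, adjusted p = 0.0146 by edgeR's quasi-likelihood test), and Clic6 was the only 1 of the 7 choroid plexus genes tested there to pass, against 3.1% of 14660 genes. In the embryonic libraries Clic6 had averaged 0.931 ± 0.198 CPM with water (SD, n = 6) and 0.927 ± 0.221 CPM with TETA (SD, n = 6). The change was -2.90 for Ttr (SE 2.04, adjusted p = 0.536 by edgeR), and 1.39 without control 4.

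Between ages, control libraries differed in all 7 of the genes tested, as did 89.3% of all genes, so the count says little about these genes. Enpp2 was higher at 7 weeks by 4.52 on the log2 scale (SE 0.0548), F5 by 2.78, Kl by 1.70 (SE 0.302) and Clic6 by 0.74 (SE 0.235). Otx2 was lower, at -3.61 (SE 0.529), and Prlr at -1.55 (SE 0.233). Otx2 had passed the filter only through the E18.5 libraries and F5 only through the 7-week libraries, so these 2 had to differ and their values are a description. Ttr was at 3.70 (SE 0.93) with control 4 and at -0.58 without it. Age cannot be told apart here from brain region, sex or the separate table of each age.

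Levels per kilobase of exon allow the genes to be ranked against each other. In E18.5 controls Enpp2 led with a median of 2.46 CPM per kb, followed by Ttr at 0.281, Clic6 at 0.248, Otx2 at 0.245, Aqp1 at 0.131, Prlr at 0.107, Kl at 0.0616, Folr1 at 0.0338, Slc4a5 at 0.0312 and F5 at 0.0208. The ranges of every neighbouring pair overlapped, Enpp2 and Ttr only through control 3-2. In 7-week controls Enpp2 led at 50.6 CPM per kb, ahead of Ttr at 0.543, Clic6 at 0.343, Kl at 0.198, Aqp1 at 0.175, Folr1 at 0.11, F5 at 0.108, Prlr at 0.028, Slc4a5 at 0.00925 and Otx2 at 0. Neighbours separated without overlap only between Enpp2 and Ttr and between F5 and Prlr. Ttr ranked next after Enpp2 at both ages, and its range overlapped that of Clic6 at both.

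Likeness of pattern to Ttr was measured as Pearson's r of log2(CPM + 1) across the libraries of an age. At E18.5 (12 libraries) the 10 most alike genes were Fhit, Ramp1, Tecr, Ecel1, Ptpn6, Pbx4, Arhgap10, Phkg2, Mocs3 and Gstm1, with r from 0.79 to 0.87, and none of them was on a choroid plexus list. The other choroid plexus genes ran from -0.49 for Kl to 0.63 for F5, and without controls 3-1 and 3-2 F5 was at -0.0079. Without these libraries the 10 most alike genes ran from 0.23 (Arhgap10) to 0.86 (Tecr). At 7 weeks (9 libraries) the most alike were Ncoa1, Gucy2g, Pde3b, Hnrnpab, Vwa3b, Acy1, Zfp106, F5, Fen1 and Mcm2, with r from 0.86 to 0.92. Otx2 and Slc4a5, too low to be ranked with them, were at 0.97. Without control 4 alone (8 libraries), Otx2 was at 0.52, Slc4a5 at 0.49 and F5 at -0.45. Without controls 4 and 5, the libraries farthest from the Ttr median, Slc4a5 was at 0.26 and F5 at -0.66. Of the other most alike genes, Hnrnpab was then at 0.79, Pde3b at 0.52, Ncoa1 at 0.21 and Acy1 at 0.085. Below 0 were Vwa3b at -0.063, Mcm2 at -0.11, Gucy2g at -0.54, Fen1 at -0.70 and Zfp106 at -0.89. With all libraries Prlr was at 0.83, Folr1 at 0.74, Enpp2 at 0.68, Clic6 at 0.61, Kl at 0.59 and Aqp1 at -0.05. Without control 4 these were 0.58, 0.28, -0.03, -0.014, 0.14 and -0.03. All genes of a library share its depth and scaling.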

How the data were processed

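For each age the authors deposited a single count table with gene symbols as rows and libraries as columns, per the file headers. The submitters' processing notes name STAR 2.7.1a, featureCounts 2.0.1 and mm10, without roles. The 10 genes and all marker lists were chosen with earlier results of these data known. E18.5 rows at 0 in control 1-1 were divided by 11. None of the 1940 passed the filter afterwards, and the counts as deposited were run as an alternative.

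Each age was fitted alone on the whole table (filterByExpr with a minimum count of 10, TMM scaling, edgeR 4.0.16 quasi-likelihood test, Benjamini-Hochberg threshold 0.05, R 4.3.3), and both ages together for the difference between ages. The fits were tested on simulated data. The standard error is the log2 fold change divided by the root of F. Exon lengths and positions come from GENCODE on GRCm38. Alternatives were other filters, no TMM, DESeq2 1.42.0, limma 3.58.1 voom with quality weights, replicate blocks, summed libraries and leaving out each library. Replicate libraries differed beyond counting noise (lowest chi-square per gene 2.29). All 10 genes were named at each age. Of the 44 further choroid plexus genes, 43 were in the tables, and those past the threshold were named (apart from items that are not reported here), or, where none passed, the 3 with the smallest p. Values of the 10 genes' median, unadjusted count and likeness to Ttr without control 4 were added after seeing the data.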

Additional observations from a re-analysis of the deposited data

Results flagged for a closer look

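In 40 groups (10 genes, 4 groups of libraries each), 5 held a library far from the others of its group. About 2 would be flagged if values were normally spread and groups independent, which low counts from shared libraries are not. Of the 5, 4 were control 4 at 7 weeks. These were Ttr at 51.9 CPM (others 0.172 to 0.741), Otx2 at 0.358 CPM (the 4 others at 0), Slc4a5 at 0.613 CPM (others 0 to 0.126) and F5 at 1.89 CPM (others 0.73 to 0.838). The remaining one was Slc4a5 in TETA 1 at 7 weeks, at 0.129 CPM against 0.043 to 0.0557, which is 3 counts against 1 in each other TETA library. The effect of TETA on Clic6 differed between ages by -1.64 on the log2 scale in the model over both ages.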

How the results depend on the processing

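Clic6 at 7 weeks passed under every alternative in which it was tested, at -1.85 to -1.40 when 1 library was left out. With a mean of at least 50 counts Clic6 was not tested and 0 of the choroid plexus genes passed. The number called was 2 without a filter (Ttr joined, adjusted p = 0.0412 by edgeR) and 2 with the replicate block (Ttr, adjusted p = 0.0354 by edgeR). The block fit also left out control 5, whose number no TETA library shares. With 1 library left out the number called was 1 to 2, the 2 being without control 2 or control 5. DESeq2 gave Ttr no adjusted p.

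Among all genes at E18.5, DESeq2 called 10, quality weights 8, summed libraries 2 and left-out libraries 0 to 7 (7 without TETA 1-2, 3 without control 3-2). At 7 weeks left-out libraries gave 927 (without TETA 3) to 1392, and for the further choroid plexus genes 6 to 9.

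The following uncalled log2 values changed sign. With the replicate block, Otx2 at E18.5 was -0.022 and Prlr at 7 weeks -0.047. With counts as deposited, Otx2 at E18.5 was -0.0020. With 1 library left out, the range at E18.5 was -0.13 to 0.096 for Otx2, -0.080 to 0.11 for Clic6 and -0.060 to 0.028 for Enpp2. At 7 weeks it was -0.096 to 0.45 for Kl, -0.070 to 0.47 for Prlr, -3.95 to 0.67 for Ttr and -0.51 to 0.19 for Aqp1. For the difference of the TETA effect between ages it was -0.20 to 0.34 for Prlr (0.014 without TMM), -3.71 to 1.39 for Ttr, -0.42 to 0.13 for Kl and -1.70 to 2.80 for Otx2. For control between ages it was -0.58 to 4.51 for Ttr, which is called. Apart from Ttr without control 4, no cause was tested.

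The replicate block changed no other call. Same-numbered libraries correlated at -0.322 to 0.331 in their deviations from group means at E18.5 and at -0.116 to -0.0355 at 7 weeks, so the numbers were not taken as pairs. Depth limits Otx2 and Slc4a5 at 7 weeks and Ttr, Folr1, Slc4a5 and F5 at E18.5, which had 0 counts in at least 1 library.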
